A study of Homo sapiens with 4 samples.

Results

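The 10 genes followed here stand at the plasma membrane where a cell meets mechanical force and mends a wound: the channels PIEZO1, TRPV2, TRPM7 and PANX1, the store-operated calcium entry pair ORAI1 and STIM1, and the membrane repair genes DYSF, CHMP4B, PDCD6 and PDCD6IP. The members were taken by symbol, as every probe set that the array annotation assigns to one of them. Of the 10 genes 9 were measured, out of 19775 genes on the table. Of 54675 probe sets 26 were annotated to these 9, and 23 of the 26 name 1 gene only. PDCD6IP, which encodes the adaptor ALIX, was not analysed here.

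PIEZO1 is a cation channel that membrane tension opens directly, and TRPV2 and TRPM7 are calcium-permeable channels of the transient receptor potential family. A torn plasma membrane lets calcium in, and calcium sensors then bring repair proteins to the wound: dysferlin joins vesicles to the membrane, while ALG-2 (the product of PDCD6) and ALIX bring the ESCRT-III filament subunit CHMP4B, which pinches off damaged membrane. Microbubbles that vibrate or collapse in an ultrasound field can open pores in nearby cells, which is why these genes are of interest in cells given both.

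The cells were U937, an established human monocyte-like line that the labels call a lymphoma and the series title a leukemia line. The 4 groups were Sonazoid with ultrasound (the combination), ultrasound only, Sonazoid only, and untreated control cells, with 1 array each. Sonazoid, a microbubble contrast agent for ultrasound imaging, was used at 0.05%. Sonication lasted 1 min at an intensity of 0.3 W/cm2, and 3 h passed between treatment and RNA extraction. The labels state no such wait for the control cells. The line was the same in all groups, each of which is 1 sample, and in such bulk RNA fewer cells of a kind and less RNA per cell cannot be told apart.

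Signals below are linear probe set intensities from Affymetrix U133 Plus 2.0 arrays, each array scaled by 1 factor to a common trimmed mean. The floor was 23.8, the median of all scaled signals, and lower signals were set to it before log2 was taken. Between 11984 and 12252 genes lay above the floor on each array. Of 14 myeloid markers 12 were above it on all 4 arrays, with the granule protease gene ELANE between 7974 and 10586; MPO was above it with Sonazoid only (28.6) and FCGR1A on no array. Markers of other cells were above the floor on all arrays in 1 of 7 T and NK cell genes (NKG7, from 2771 to 3197), 2 of 4 B cell genes (CD79A and PAX5), 1 of 3 erythroid and platelet genes (HBB), 0 of 5 epithelial genes and 2 of 6 fibroblast and endothelial genes (COL1A1, and PECAM1 from 648 to 810). CD3D, CD8A, GNLY and EPCAM were below it on all arrays, while CD3E was above it on 2 and KRT8 on 3, up to 59.2 in the combination. The summed T and NK markers were 3241 in the combination, 3246 with ultrasound only, 2883 with Sonazoid only and 2987 in control, and the epithelial sums 109.9, 59.4, 80.0 and 66.9 on the same arrays. Signals below the floor entered these sums unchanged, and NKG7 made up most of each T and NK sum. The part of these markers in the results was not tested. With 1 array per group there were no replicates and no test was run. A fit of both main effects would leave 1 residual degree of freedom, the departure from additivity described here. Counts of genes past a fold were set beside the share of all genes past it, and no contrast in the design is a true repeat. Ultrasound was compared with its absence in a pair of contrasts that share no array: the combination over Sonazoid only, and ultrasound only over control. Their difference is that departure, with an SD of 0.39 (log2) over the 10628 genes above the floor on all arrays. The departure mixes noise with any change that Sonazoid makes to the ultrasound contrast, and these cannot be told apart.

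The bases just upstream of the start site of 4 members are shown because PANX1 and PIEZO1 had the largest ultrasound contrasts above 0 among the members, while CHMP4B and PDCD6 had the narrowest spans over the arrays. Each run is the 250 bases before the RefSeq start on GRCh38.p14, 5′ to 3′ on the gene's strand, and capitals mark GC boxes (GGGCGG or its reverse complement CCGCCC), which factors of the SP and KLF families can bind. PANX1 lies on the plus strand at chr11:94128591-94128840, PIEZO1 on the minus strand at chr16:88785221-88785470, CHMP4B on the plus strand at chr20:33811098-33811347 and PDCD6 on the plus strand at chr5:271396-271645.
PANX1: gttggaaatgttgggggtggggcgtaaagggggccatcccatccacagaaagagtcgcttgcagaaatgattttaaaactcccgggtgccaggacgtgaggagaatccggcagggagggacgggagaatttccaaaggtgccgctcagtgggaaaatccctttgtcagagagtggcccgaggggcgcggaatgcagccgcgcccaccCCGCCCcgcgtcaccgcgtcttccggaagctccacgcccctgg
PIEZO1: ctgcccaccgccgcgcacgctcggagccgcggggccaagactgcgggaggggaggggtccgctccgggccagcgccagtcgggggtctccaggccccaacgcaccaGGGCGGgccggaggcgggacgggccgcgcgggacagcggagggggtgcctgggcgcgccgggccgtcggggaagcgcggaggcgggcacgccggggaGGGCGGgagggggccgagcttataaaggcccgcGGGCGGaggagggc
CHMP4B: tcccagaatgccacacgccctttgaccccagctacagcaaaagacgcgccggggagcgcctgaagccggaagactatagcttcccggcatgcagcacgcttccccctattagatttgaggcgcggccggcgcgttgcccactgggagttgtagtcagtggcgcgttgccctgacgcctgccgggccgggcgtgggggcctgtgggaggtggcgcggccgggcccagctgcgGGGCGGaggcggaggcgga
PDCD6: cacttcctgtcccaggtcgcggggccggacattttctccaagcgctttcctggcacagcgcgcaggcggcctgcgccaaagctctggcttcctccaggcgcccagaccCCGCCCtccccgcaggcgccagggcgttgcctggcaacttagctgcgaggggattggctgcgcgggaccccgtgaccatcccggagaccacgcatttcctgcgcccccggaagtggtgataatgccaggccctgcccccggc

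A GC box stood in all 4 windows, 3 times in that of PIEZO1 and once in each of the others, and in 42.6% of the 35116 promoter windows of the same length. The windows were 81.2% G or C for PIEZO1, 69.6% for CHMP4B and for PDCD6, and 62% for PANX1. None of the 4 held an AP-1 site (TGANTCA, in 6.57% of windows), a cAMP response element (TGACGTCA, 1.65%) or an EGR site (GCGNGGGCG, 8.41%). Both strands were searched. The letters GAANNTTC (5.78%), 1 order of a paired heat shock element, were also absent from all 4. They read the same on both strands, so the reverse order of the pair was not searched. The PANX1 window printed above holds that reverse order near its 3′ end. AP-1, EGR and heat shock factors drive many stress-induced genes. The search says only that the letters given in this paragraph for these sites are absent from these windows. The GC box was thus shared by members with large and with small contrasts. TRPM7 and DYSF, not shown, each had 1 GC box and none of the other letters searched. STIM1 had several windows, with 8, 0, 2 and 8 GC boxes and with 1, 0, 1 and 1 EGR sites. The promoter sequences used here covered 7 of the 9 measured members and held no entry for TRPV2 or ORAI1.

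**Figure D1:**
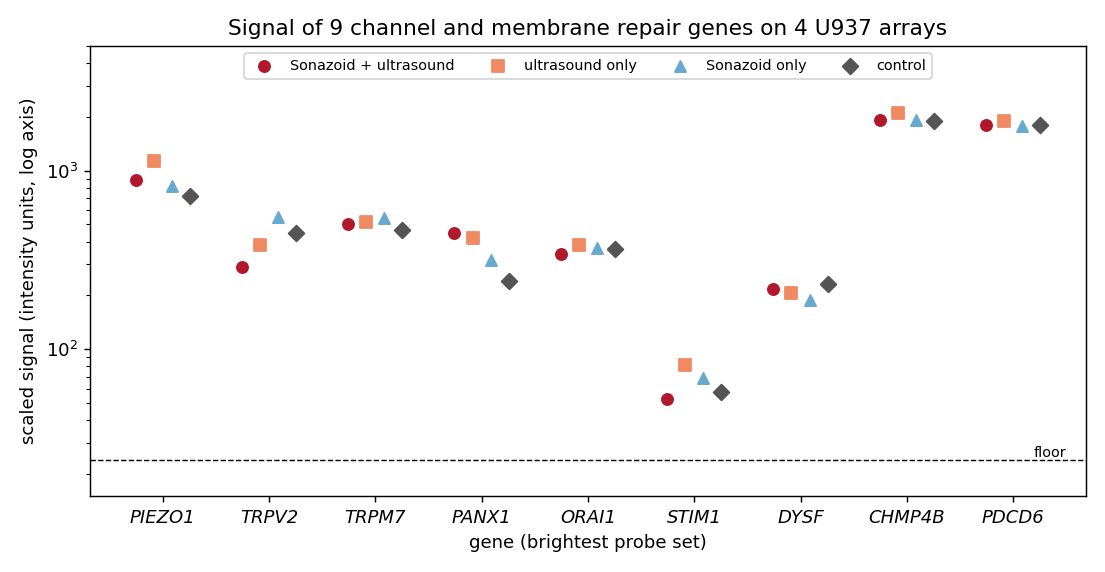
Scaled signal (log axis, intensity units) of the brightest probe set of each of 9 members, with 1 point per array; the dashed line is the floor of 23.8. PANX1 was highest in the combination (446) and lowest in control (242), while the 4 points of CHMP4B and of PDCD6 nearly coincide. Heights can be compared between arrays of a gene, not between genes, since probe sets differ in how strongly they bind.

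PANX1 had the largest mean ultrasound contrast of the 9 measured members. It encodes pannexin 1, a large-pore channel that releases ATP, opens under mechanical stretch and is cut open by caspases in dying cells. Its brightest probe set stood at 446 in the combination, 418 with ultrasound only, 315 with Sonazoid only and 242 in control. Both arrays with ultrasound were thus above both arrays without it. The signal was 1.85-fold higher in the combination than in control, 1.73-fold higher with ultrasound only than in control, and 1.42-fold higher in the combination than with Sonazoid only. Sonazoid only stood 1.31-fold above control, and the combination 1.07-fold above ultrasound only.

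The other probe sets of PANX1 were measured separately by different probes on the same arrays. Probe set 204715_at stood at 206 in the combination, 186 with ultrasound only, 136 with Sonazoid only and 122 in control. Probe set 235295_at followed the same order at 172, 161, 123 and 108. The dimmest, 236372_at, did not: it stood at 72.9 in the combination, 54.6 with ultrasound only, 69.7 with Sonazoid only and 61.9 in control, so ultrasound only was the lowest array. In 3 of the 4 probe sets the combination was at least 1.5-fold over control, a pattern chosen after its values were seen. Among 2299 genes with 3 or more probe sets above the floor, 0.783% had as many at that fold, and 0.913% had 3 or more at least 0.32 (log2) higher in both ultrasound contrasts, as PANX1 did. Genes with 3 probe sets needed all of them to pass, so these shares are not those of genes with 4. Probe sets of a gene share the RNA and the array, so they repeat the measurement, not the culture.

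The mean of the pair of ultrasound contrasts for PANX1 was 0.65 (log2), above that of 98.0% of the genes above the floor on all arrays. Its contrasts were 0.50 and 0.79. They differed by 0.29, where the SD of that difference was 0.37 over genes with a mean signal from 100 to 500. Across 7 other ways of processing, PANX1 stayed higher in the combination than in control by 0.64 to 1.06 (log2) and higher with ultrasound only than in control by 0.45 to 0.79. The low end of both ranges, where the second fell short of 1.5-fold, came from averaging its probe sets. Some of the 7, the other floors and the gene-specific probe sets, could not change its value.

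**Figure D2:**
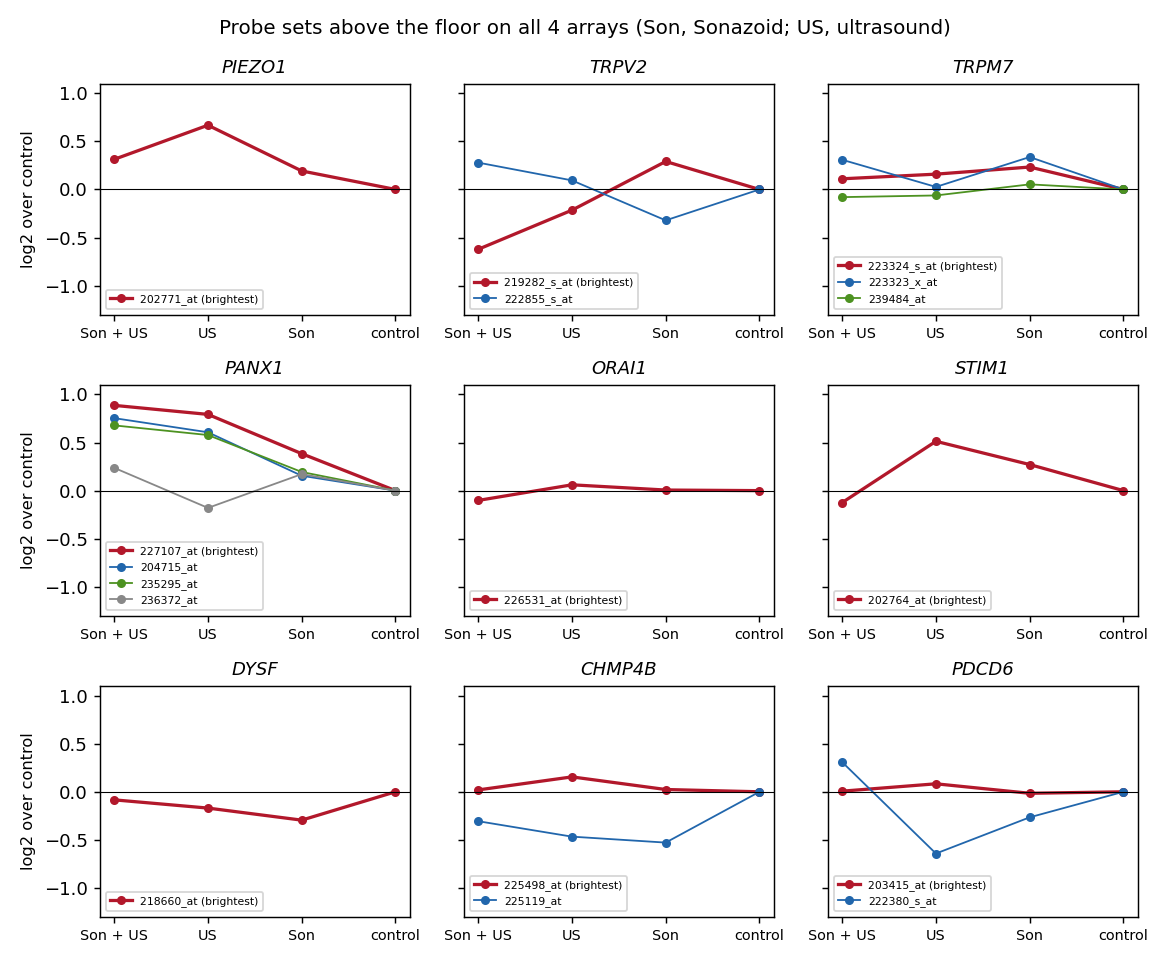
Log2 signal relative to the control array for each probe set of the 9 members that was above the floor on all arrays; the thick red line is the brightest probe set, lines join points for legibility only, and control is at 0 by construction. In PANX1 3 of 4 lines share an order, while both lines of TRPV2 mirror each other.

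PIEZO1 was highest with ultrasound only. Its brightest probe set, 202771_at, stood at 891 in the combination, 1140 with ultrasound only, 820 with Sonazoid only and 717 in control. The arrays with ultrasound were again above those without, but the combination lay only 1.09-fold over Sonazoid only, against 1.59-fold for ultrasound only over control. The departure from additivity was -0.55 (log2), where its SD was 0.22 over genes with a mean signal from 500 to 1500. The combination was 1.24-fold over control. The remaining probe sets of PIEZO1 were near the floor: 1566110_at stood at 20.8 in the combination, 26.2 with ultrasound only, 41.3 with Sonazoid only and 28.3 in control, and 1566111_at at 27.3, 44.8, 21.3 and 22.2 on the same arrays. The mean over all 3 was lower in the combination than with Sonazoid only (log2 -0.16), the reverse of the brightest.

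TRPV2, a calcium-permeable channel abundant in macrophages, gave opposite readings from its probe sets. The brighter, 219282_s_at, stood at 290 in the combination, 385 with ultrasound only, 547 with Sonazoid only and 447 in control, and its mean ultrasound contrast of -0.56 (log2) was the lowest of the 9 members. The combination lay 1.54-fold below control and 1.88-fold below Sonazoid only. The dimmer, 222855_s_at, stood at 114 in the combination, 101 with ultrasound only, 75.5 with Sonazoid only and 94.4 in control, and was 1.21-fold higher in the combination than in control. The order of the 4 arrays was exactly turned round between the probe sets. With both averaged, the combination differed from control by -0.17 and from Sonazoid only by -0.16 (log2), so a lower TRPV2 level rested on 1 probe set. Both probe sets carry the suffix that the array's maker gives to sets that may bind several transcripts.

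TRPM7, a channel fused to a protein kinase that carries magnesium and calcium, was nearly level. Its brightest probe set stood at 500.3 in the combination, 517 with ultrasound only, 544 with Sonazoid only and 463 in control. Highest over lowest was 1.18-fold, with control the lowest. Probe set 223323_x_at ranged from 145 to 183, and 239484_at from 145 to 159. Sonazoid only was the highest array in all 3 of these, while the lowest was control in the first pair and the combination in the last. Of the other 2, 237884_x_at was below the floor on all arrays and 231689_at was above it with Sonazoid only and in control (23.9 and 29.6).

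Store-operated calcium entry refills calcium stores: STIM1 senses a low level in the endoplasmic reticulum and opens the ORAI1 pore in the plasma membrane. ORAI1 stood at 341 in the combination, 382 with ultrasound only, 367 with Sonazoid only and 366 in control, a span of 1.12-fold. The combination was the lowest array, but it was above control with the values as deposited. STIM1 was dim, at 52.7 in the combination, 82.0 with ultrasound only, 69.3 with Sonazoid only and 57.5 in control. It was 1.43-fold higher with ultrasound only than in control and 1.32-fold lower in the combination than with Sonazoid only. The combination was 1.56-fold below ultrasound only, which was under 1.5-fold with the values as deposited (log2 -0.42), a pseudocount of 16 (-0.51) and the mean of probe sets (-0.31), and 0 with the floor at the 75th percentile. The contrasts of STIM1 thus pointed in opposite ways, with a departure of -0.91 (log2), where its SD was 0.65 over genes with a mean signal below 100. Its other probe set was above the floor only in the combination (24.2).

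DYSF, whose loss causes muscular dystrophies, encodes the calcium-binding repair protein dysferlin. Its 1 probe set stood at 218 in the combination, 205 with ultrasound only, 188 with Sonazoid only and 231 in control. Control was the highest array and Sonazoid only the lowest, 1.23-fold apart, and the arrays with and without ultrasound overlapped.

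CHMP4B and PDCD6, the ESCRT subunit and its calcium sensor, had the smallest spans of the brightest probe sets. CHMP4B stood at 1913 in the combination, 2101 with ultrasound only, 1918 with Sonazoid only and 1887 in control, 1.11-fold from lowest to highest. PDCD6 stood at 1802 in the combination, 1900 with ultrasound only, 1774 with Sonazoid only and 1794 in control, a span of 1.07-fold. The median span over the 1933 genes with a mean signal over 1500 was 1.15-fold, so both lay below that median. Ultrasound only was the highest array for each.

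Dimmer probe sets of both genes varied more. The second of CHMP4B, 225119_at, stood at 392 in the combination, 350 with ultrasound only, 336 with Sonazoid only and 484 in control, so all treated arrays were below control. For PDCD6, 222380_s_at stood at 78.3 in the combination, 40.5 with ultrasound only, 52.6 with Sonazoid only and 63.2 in control, with the combination highest and ultrasound only lowest. Probe set 222152_at was above the floor only in control (27.6). The other 3 probe sets annotated to PDCD6 also name its pseudogene PDCD6P1 and were left out of its value; 1 of them was above the floor, at 139 in the combination, 166 with ultrasound only, 141 with Sonazoid only and 115 in control.

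Counted over the 9 measured members, few passed 1.5-fold, and the shares are read against all genes in the same comparison. In the combination against control 1 member was higher (PANX1) and 1 lower (TRPV2), against backgrounds of 5.87% higher and 4.67% lower. With ultrasound only against control 2 were higher (PIEZO1 and PANX1, background 6.75%) and 0 lower (4.03%). With Sonazoid only against control 0 were higher and 0 lower, where 3.96% and 4.29% of genes were. In the combination against ultrasound only 0 were higher (4.36%) and 1, STIM1, was lower (5.88%), a call lost under 4 of 7 alternatives. In the combination against Sonazoid only 0 were higher (5.85%) and 1, TRPV2, was lower (4.36%).

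No member reached 2-fold in any of the 5 comparisons. The share of all genes that did was 2.26% in the combination against control, 2.37% with ultrasound only against control and 1.37% with Sonazoid only against control. It was 1.86% in the combination against ultrasound only and 2.17% in the combination against Sonazoid only. The median of the members was 0.01 (log2) in the combination against control and 0.15 with ultrasound only against control, beside -0.00 and 0.02 over all genes tested. In the combination it was -0.14 against ultrasound only and -0.00 against Sonazoid only, and with Sonazoid only against control it was 0.19, beside -0.01, -0.00 and -0.00 over all genes. Of the 9 members 1, PANX1, was at least 0.32 (log2) higher in both ultrasound contrasts, and 0 were as much lower in both, where 4.23% and 2.51% of genes were. Among so few members 1 gene weighs heavily. The counts were not tested against the background shares, and no result about the members is drawn from them.

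**Figure D3:**
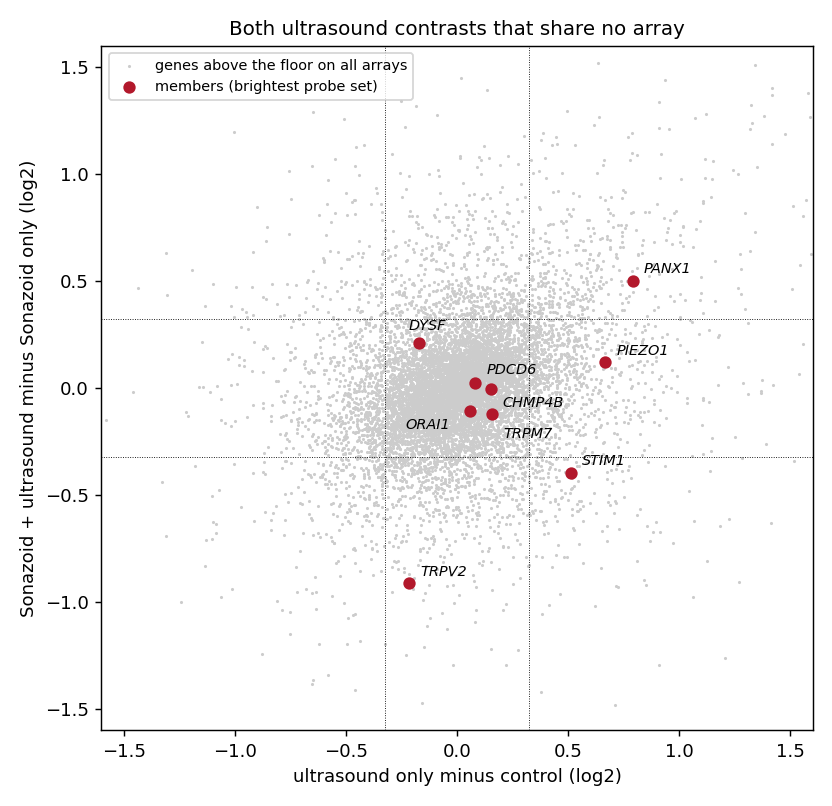
Each point is a gene above the floor on all arrays (grey) or a member (red), placed by ultrasound only minus control (horizontal, log2) and the combination minus Sonazoid only (vertical, log2). Dotted lines mark 0.32 either way, 43 genes lie outside the axes, and PANX1 is the 1 member beyond the lines at the upper right.

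Related genes were described through 9 lists, with 95 genes above the floor on all arrays. Of these 6 were at least 0.32 (log2) higher in both ultrasound contrasts and 1 was lower, beside the 4.23% and 2.51% of all genes given above, and the median of their mean contrast was 0.01 (log2). Of 11 ESCRT-II and ESCRT-III genes 1, CHMP1B, was higher in both contrasts: it stood at 767 in the combination, 797 with ultrasound only, 579 with Sonazoid only and 592 in control, but its other probe set had a mean contrast of -0.35. CHMP2B (-0.16), CHMP6 (-0.15) and CHMP7 (-0.22) had mean contrasts below 0. The list median was -0.05.

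Of 11 genes of ESCRT-0 and ESCRT-I, which recognise ubiquitin-tagged cargo, 0 passed in either direction, with mean contrasts (log2) of 0.31 for UBAP1, 0.18 for MVB12A, -0.29 for MVB12B and -0.40 for STAM2. The STAM2 value rested on its brightest probe set, at 209 with ultrasound only and from 330 to 348 on the other arrays, and its 4 others were between -0.10 and 0.03. None of 7 genes around VPS4, the ATPase that takes ESCRT-III filaments apart, passed, and the 2 with the same sign in both contrasts were VPS4A (-0.11) and CEP55 (-0.04). Of 10 penta-EF-hand proteins and ALG-2 partners 0 passed; among them were PEF1 (0.10), a dimer partner of ALG-2, CAPNS1 (0.17), the small calpain subunit, GCA (-0.28), encoding grancalcin, and MAPK1IP1L (-0.09).

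The ferlin and calpain list, with 9 genes, had the highest median mean contrast of the 9 lists, 0.19 (log2). With ultrasound only against control its median was 0.33, and 3 of its genes were at least 1.5-fold higher, where 6.75% of all genes were: CAPN1 (0.84), EHD2 (1.103) and MYOF (0.69), EHD2 and MYOF being named after their values were seen. In the combination against Sonazoid only these had 0.18, -0.17 and -0.10, and the list median was 0.14. In the combination against control the median was 0.04, and 0 genes of the list were 1.5-fold higher or lower. EHD2 and MYOF were dim, at 77.7 and 66.2 with ultrasound only and 36.2 and 41.1 in control. Their departures were -1.28 and -0.79, where the SD was 0.65 over genes with a mean signal below 100. The 1 gene of the list that passed in both contrasts was AHNAK, a giant scaffold that binds dysferlin. It stood at 458 in the combination, 450 with ultrasound only, 208 with Sonazoid only and 330 in control, so the low Sonazoid array widened its contrast, and its other probe set had a mean of -0.13. CAPN1, a calpain protease, stood at 125 in the combination, 238 with ultrasound only, 110 with Sonazoid only and 132.8 in control. The combination was thus just below control, its departure was -0.66, and another probe set had a mean contrast of -0.28, while CAPN2, another calpain gene, had a mean contrast of 0.19. Of 14 lysosome exocytosis genes MYH9, a nonmuscle myosin, passed: it stood at 555 in the combination, 666 with ultrasound only, 443 with Sonazoid only and 517 in control. SMPD1 (0.32), the acid sphingomyelinase released at wounds, CTSB (0.17), a lysosomal protease, and TFEB (-0.23), a regulator of lysosomal genes, did not pass.

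Among 12 large-pore and ATP-release channels and purinergic receptors, genes lay on both sides of 0. LRRC8B, a subunit of volume-regulated anion channels, stood at 134 in the combination, 140 with ultrasound only, 76.3 with Sonazoid only and 98.2 in control, and CALHM2 at 260, 297, 190 and 224. Both were higher in both ultrasound contrasts. P2RY2, a receptor for ATP and UTP, was the 1 list gene lower in both: 163 in the combination, 206 with ultrasound only, 250.2 with Sonazoid only and 274 in control. P2RX7, an ATP-gated channel, had a mean contrast of -0.28 and did not pass. The list median was -0.06, and its sign turned under 3 of 7 alternatives.

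ATP2B1, a calcium pump of the plasma membrane, was higher in both contrasts, at 866 in the combination, 803 with ultrasound only, 676 with Sonazoid only and 621 in control. Of its list of 16 calcium entry and clearance genes it was the 1 that passed. ORAI2, a pore related to ORAI1, had a mean contrast of 0.40, with its 4 other probe sets from -0.23 to 0.43, CRACR2B, a regulator of ORAI channels, one of 0.59 from a dim signal, and ATP2B4, another such pump, one of -0.34. Of 7 further channels above the floor, linked to mechanical force or to calcium, none passed. The named ones were TMEM63B, a mechanosensitive channel (0.48, from a dim signal of 51.1 to 84.2), TRPM4, opened by calcium (0.19), and TRPM2, opened under oxidative stress (-0.05).

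**Figure D4:**
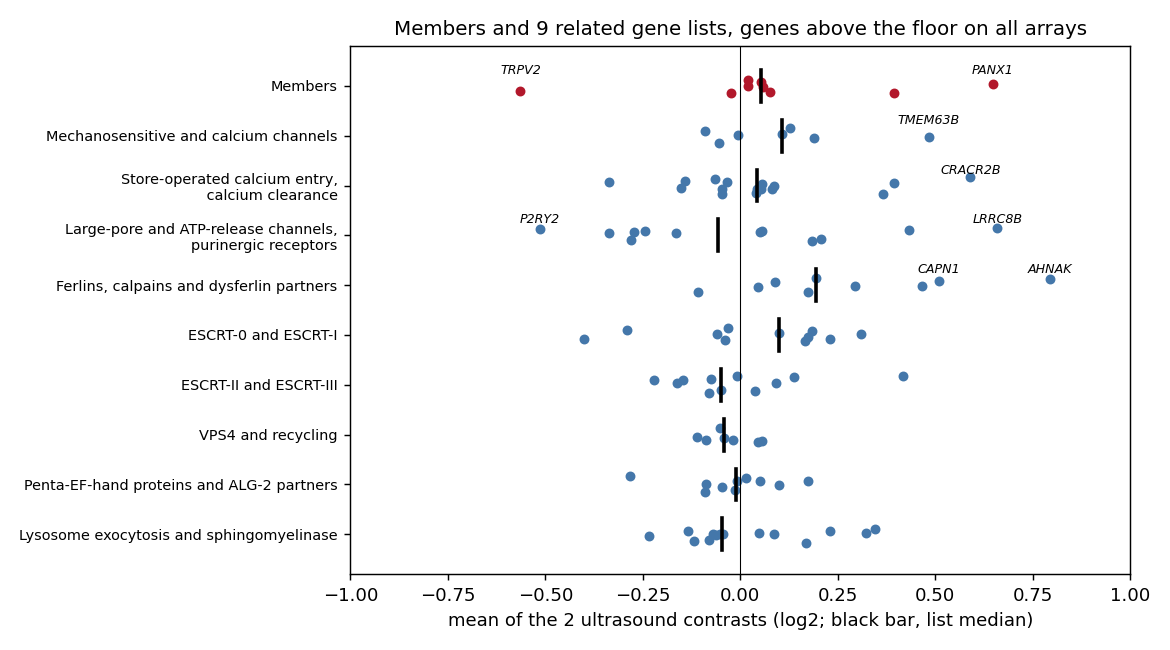
Mean of the pair of ultrasound contrasts (log2) for the 9 members (red) and for genes of 9 related lists (blue), 1 point per gene, with black bars at list medians. Points are scattered vertically for legibility, and the genes farthest from 0 are named; the members' median is 0.05.

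The genes whose 4 values lay closest to those of PANX1, by Euclidean distance after centring each gene on its own mean, were OTUD3, a deubiquitinase (0.049 in log2 units), MS4A7 (0.076), DNAJC6, encoding auxilin (0.10), COL7A1, a collagen (0.10), and STK17B, a kinase (0.11). They were ranked among 10627 genes over 4 arrays, and 4 values per gene allow many close matches. MS4A7, for example, stood at 374 in the combination, 366 with ultrasound only, 283 with Sonazoid only and 214 in control.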

How the data were processed

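RNA from U937 cells of 4 groups was measured on 1 Affymetrix U133 Plus 2.0 array each. The authors deposited 1 linear intensity per probe set and array. The labels and headers name neither the software that summarised the probes nor any scaling. RNA was treated with DNase and labelled by one-cycle synthesis, per the labels' protocols. Trimmed means (2% off each end) of the deposited arrays differed 1.16-fold, above the 1.1-fold that called for scaling, so each array was multiplied by 1 factor (0.923 for the combination, 1.07 for ultrasound only, 0.977 for Sonazoid only, 1.04 for control). Scaled signals under 23.8 were set to it and log2 was taken.

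The platform annotation gave 1 symbol to 41097 probe sets, several to 1801 and none to 11777; symbols were updated through Entrez identifiers with RefSeq (GRCh38.p14). A gene's value is its brightest probe set by mean signal, a rule that can pass over a probe set whose signal dropped. All probe sets of members were reported. Of each related list up to 4 genes were named, those farthest from 0 by the mean of the 2 ultrasound contrasts with the same sign in both; the count of 3 probe sets for PANX1 and the threshold of 0.32 (log2) in both ultrasound contrasts were chosen after values were seen. The members and lists were chosen with earlier results of these data known. Precision is limited by the number of arrays, 1 in each group, and no p-value is given. The calculation was tested on simulated data with less noise and larger changes than those of the members. That test checked the code and says nothing about calls of the size seen here. Python 3.11.15, numpy 2.4.6, pandas 2.3.3 and matplotlib 3.10.9 were used.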

Additional observations from a re-analysis of the deposited data

Results flagged for a closer look

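The ultrasound contrast pointed one way with Sonazoid and the other way without it in 5 of the 9 measured members; with 1 array per group any opposite signs meet this rule, 39.3% of the genes above the floor on all arrays did, and the difference was not tested. For STIM1 the contrast was -0.40 (log2) in the combination over Sonazoid only and 0.51 for ultrasound only over control, a departure of -0.91. For DYSF the contrasts were 0.21 and -0.17, a departure of 0.38. TRPM7 had -0.12 and 0.16, a departure of -0.28. ORAI1 had -0.11 and 0.06, a departure of -0.17. CHMP4B had -0.0044 and 0.15, a departure of -0.16.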

How the results depend on the processing

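Each result was recomputed with the values as deposited, with quantile normalisation, with floors at the 25th and 75th percentile, with no floor and a pseudocount of 16, with the mean of a gene's probe sets and with gene-specific probe sets, 1 change at a time. PANX1 was at least 1.5-fold higher in the combination than in control, and at least 0.32 (log2) higher in both ultrasound contrasts, under all 7. The other floors and the gene-specific probe sets could not change its value. Its brightest probe set is gene-specific and lay above both of those floors on all arrays. The members with the combination 1.5-fold or more below control numbered 0 instead of 1 with the values as deposited, with the mean of probe sets and with gene-specific probe sets, which leave out TRPV2. Those lower in the combination than with Sonazoid only numbered 0 instead of 1 with the mean of probe sets and with gene-specific ones. Those lower than with ultrasound only (STIM1) numbered 0 instead of 1 with the values as deposited, the floor at the 75th percentile, the pseudocount and the mean of probe sets. Those higher with ultrasound only than in control numbered 0 instead of 2 with the mean of probe sets. The other causes were not tested. The values as deposited shifted the median over all genes by 0.17 (log2) in the combination against control and by 0.21 against ultrasound only, and turned the sign of ORAI1, STIM1 and DYSF in the combination against control. In all, 172 of 182 recomputed counts and medians, and 415 of 434 values of single members, moved by less than 1.5 times or by less than the spread of a contrast (0.28, log2), and no difference of 1.5-fold or more turned its sign. These totals include values that could not move. The brightest probe set of every member lay above the floor, so the floor at the 25th percentile left the member values unchanged. Counts that stayed at 0 were also scored as unmoved. No paired analysis was possible because each group is 1 array. Signals near the floor, such as those of STIM1, limit what can be seen.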
